A study of Mus musculus with 27 samples.

Results

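The 6 Iroquois homeobox genes, Irx1, Irx2, Irx3, Irx4, Irx5 and Irx6, were followed through limb bud mesenchyme made from mouse ES cells and through embryonic tissues. The genes were chosen by name, as the family that lies in 2 genomic clusters, and all 6 were found among the 23279 genes listed. Of 27 libraries, 26 were used, because replicate 2 of the E10.5 HLBs lists genes of chromosome 8 at 0. All 6 genes passed the filter on low values, which 14438 genes passed in all.

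Embryonic groups were dissected from Slc:ICR mouse embryos. They comprised early forelimb buds (FLBs) and early hindlimb buds (HLBs), which the labels place at E10.0, and from E10.5 the FLBs and HLBs, the arch of the face and neck (BA, branchial arch), the tail bud (TB) and the heart (Ca). The figure legend of the study places the early FLBs before and the early HLBs after the labelled stage, so that limb type and age cannot be told apart in the early pair. ES–FLB and ES–HLB cells were derived in culture from EB5 mouse ES cells that carry a GFP reporter in 1 copy of Hand2 (Hand2::GFP +/-), through 9 days of aggregate culture. Retinoic acid was added for the forelimb type, and an antagonist of its receptor was used for the hindlimb type. Cells of both types were sorted for the reporter, and both types come from a single ES line. The paper uses Hand2 as a marker of lateral plate mesoderm and of the posterior limb bud. By staining, it reports that Irx3 and Hand2 were mutually exclusive in the inner mesenchyme of ES–HLB. How that stain relates to the Irx3 RNA of the sorted cells was not tested. The embryonic tissues were not sorted. Each group had 3 libraries, except the E10.5 HLBs with 2. The labels do not say that replicates are separate animals or cultures, and p-values measure only the spread between these libraries.

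Iroquois proteins are transcription factors of the TALE homeodomain class, which also holds the Meis, Pbx and Tgif proteins. In mammals their genes lie in 2 clusters of 3 genes, IrxA with Irx1, Irx2 and Irx4 and IrxB with Irx3, Irx5 and Irx6. Genes at matching places in the clusters (Irx1 and Irx3, Irx2 and Irx5, Irx4 and Irx6) are the closest relatives. In the limb bud, Irx3 and Irx5 are used in the proximal and anterior mesenchyme and are needed there for anterior skeletal parts, in opposition to Hedgehog signalling from the posterior margin. In the heart, Irx4 is a marker of ventricular muscle and Irx3 and Irx5 act in the conduction system and in repolarization, and Irx1 to Irx3 are also used in the neural tube.

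IrxA lies on chromosome 13 of GRCm38 (the mm10 build of the study) and spans 1311 kb from Irx1 to Irx4. Irx1 is encoded on the minus strand at chr13:71957921-71963723, Irx2 on the plus strand at chr13:72628820-72634198 and Irx4 on the plus strand at chr13:73260479-73269608. IrxB lies on chromosome 8 and spans 882 kb from Irx3 to Irx6. Irx3 is encoded on the minus strand at chr8:91798525-91802067, Irx5 on the plus strand at chr8:92357625-92376286 and Irx6 on the plus strand at chr8:92674288-92680956. The spliced transcripts used to compare levels between the genes were 2373 bases for Irx1, 2625 for Irx2, 2589 for Irx4, 2748 for Irx3, 2450 for Irx5 and 3370 for Irx6.

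RefSeq start sites with promoter sequence were at hand for 3 of the 6 genes, Irx2, Irx4 and Irx3. They are shown because Irx4 had its highest level in the heart, Irx3 was the leading member in limb buds, and Irx2 was highest in tail bud and heart. Each line gives the 250 bases before the start site on the strand of the gene (GRCm38.p6), with matches to 8 searched motifs in capitals. Irx2 is read from chr13:72628570-72628819 on the plus strand, Irx4 from chr13:73260247-73260496 on the plus strand and Irx3 from chr8:91801655-91801904 on the minus strand. The gene positions printed above are from GENCODE, where Irx3 reaches 91802067 and its window lies within the gene. In RefSeq, Irx3 starts at 91801654 on its strand, next to the window. The RefSeq spans of Irx2 and Irx4 begin at 72624430 and 73259589, so their windows lie within those spans.
Irx2: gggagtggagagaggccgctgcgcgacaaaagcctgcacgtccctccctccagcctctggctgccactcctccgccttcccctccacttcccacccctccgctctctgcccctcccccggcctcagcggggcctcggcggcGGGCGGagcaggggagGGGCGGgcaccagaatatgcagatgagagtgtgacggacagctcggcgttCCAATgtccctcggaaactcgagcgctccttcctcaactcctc
Irx4: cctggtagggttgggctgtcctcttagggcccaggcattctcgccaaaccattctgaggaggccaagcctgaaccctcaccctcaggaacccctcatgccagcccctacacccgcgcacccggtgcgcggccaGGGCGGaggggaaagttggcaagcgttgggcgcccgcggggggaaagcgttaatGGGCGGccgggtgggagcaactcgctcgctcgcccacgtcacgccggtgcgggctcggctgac
Irx3: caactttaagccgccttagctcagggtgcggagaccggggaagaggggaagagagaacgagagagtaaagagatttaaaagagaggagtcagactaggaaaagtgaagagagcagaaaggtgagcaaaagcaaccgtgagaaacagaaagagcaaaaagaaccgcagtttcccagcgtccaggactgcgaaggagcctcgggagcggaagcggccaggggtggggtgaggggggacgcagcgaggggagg

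The motifs searched on both strands were the GC box GGGCGG, the CCAAT box CCAAT, the TATA box TATAAA, the retinoic acid receptor half-site AGGTCA, the T-box half-site AGGTGT, the Meis site TGACAG, the GATA site AGATAA and the GLI site TGGGTGGTC. Irx2 and Irx4 each hold GC boxes at 2 places, a motif present in 32.9% of 27025 promoters of the same length, and Irx2 also holds a CCAAT box, present in 34.5%. Irx3 holds none of the 8. The GC content was 68.4% for Irx2, 68.8% for Irx4 and 56.0% for Irx3, against a median of 52.0% over those promoters, and the ratio of observed to expected CpG dinucleotides was 0.666, 0.744 and 0.790 against a median of 0.378. These matches describe the letters in the windows and say nothing on which factors bind there.

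Depth was read from the worth of 1 read in each library, since the deposited values are CPM (reads of a gene per 1000000 reads on genes). The early limb buds had 19642247 to 22142305 reads and the other 20 libraries used had 5543754 to 8541932, so that comparisons with the early limb buds also compare depths, which cannot be told apart from stage or from culture. A floor of 3 reads was 0.135 to 0.541 CPM as deposited. It covers counting error only, because reads of PCR-amplified libraries are not independent molecules. Libraries were scaled to each other and tested together with limma on log2(CPM + 0.5), adjusted by Benjamini-Hochberg, and CPM stands for scaled CPM below. The added 0.5 makes log2 differences of genes at low values too small. In bulk tissue, fewer cells using a gene and less RNA per cell cannot be told apart. The sorted ES–LB cells held less RNA of blood and vessels than the limb buds, with erythroid markers (6 genes) summing to 5.48 to 8.43 CPM in ES–FLB and 89.9 to 169 CPM in ES–HLB against 2297 to 6784 CPM in the limb buds, and endothelial markers (5 genes) to 23.1 to 41.6 CPM against 270 to 371 CPM. Limb mesenchyme markers (10 genes, Prrx1 and Twist1 among them) summed to 1128 to 1368 CPM in the ES–LBs and 1325 to 1957 CPM in the limb buds, with all 10 at a mean of 1 CPM or more in the ES–LBs and 9 in each limb bud group. By gene they differed more than the sums show. In ES–HLB 7 were lower and 3 higher than in the early HLBs (median log2 difference −1.34). In ES–FLB 5 were lower and 2 higher than in the early FLBs (median −0.59). Of all genes, 75.3% and 76.9% differed there. Heart libraries held 14029 to 16403 CPM of 6 cardiomyocyte markers, against at most 116 CPM elsewhere.

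Irx1, the first gene of IrxA, was scarce in limb buds and abundant in both ES–LB types and the tail bud. Its CPM values were 3.53, 2.45 and 3.36 for early FLBs, 1.48, 1.56 and 1.20 for early HLBs, 2.22, 1.16 and 1.22 for E10.5 FLBs and 0.724 and 0.705 for E10.5 HLBs. ES–FLB libraries had 23.5, 22.2 and 23.6 CPM and ES–HLB libraries 40.9, 40.4 and 44.8 CPM. No limb bud library came near an ES–LB library. Among the other tissues, BA had 10.2, 9.45 and 16.2 CPM, Ca 20.6, 16.3 and 25.4 CPM and TB 34.4, 39.9 and 30.7 CPM. From high to low, the order of the means was ES–HLB, TB, ES–FLB, Ca, BA, early FLBs, E10.5 FLBs, early HLBs and E10.5 HLBs. Neighbours that did not differ by the test were ES–HLB and TB (adjusted p = 0.199 by limma), ES–FLB and Ca (0.403), and the E10.5 FLBs and early HLBs (0.835). In the E10.5 HLBs the value rested on 4 reads per library.

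Irx2, the middle gene of IrxA, spanned a narrower range, with group means from 3.31 to 22.5 CPM. Tail bud libraries had 21.8, 23.7 and 21.9 CPM and heart libraries 23.2, 17.6 and 24.3 CPM, and these groups overlapped. BA libraries had 10.6, 14.2 and 14.9 CPM, ES–FLB libraries 12.04, 11.7 and 11.3 CPM and ES–HLB libraries 8.94, 10.4 and 12.3 CPM, which also overlapped. Limb buds were lowest. They had 5.11, 4.59 and 7.08 CPM (early FLBs), 2.86, 3.80 and 3.27 CPM (early HLBs), 6.84, 4.97 and 6.45 CPM (E10.5 FLBs) and 3.44 and 4.94 CPM (E10.5 HLBs), and no 2 neighbours among these 4 groups in the order of means differed by the test.

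Irx4, the last gene of IrxA and a marker of ventricular muscle, stood out in the heart. Heart libraries had 81.1, 68.8 and 70.9 CPM, while TB had 5.89, 9.34 and 6.43 CPM and BA 5.98, 6.65 and 7.10 CPM. In limb buds it had 1.18, 0.999 and 1.03 CPM (early FLBs), 1.48, 2.34 and 1.96 CPM (early HLBs), 3.08, 3.31 and 3.31 CPM (E10.5 FLBs) and 1.99 and 1.41 CPM (E10.5 HLBs). ES–LB libraries were at the limit of detection, with 0.243, 0.519 and 0.609 CPM in ES–FLB and 0.128, 0.712 and 0.359 CPM in ES–HLB, from 1 to 5 reads each. The mean was 73.6 ± 6.602 CPM in the heart and 7.22 ± 1.86 CPM in the tail bud, the next in order (SD, n = 3 each), with no overlap of libraries (log2 difference 3.28, adjusted p = 5.2e-15 by limma).

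Irx3, the first gene of IrxB, was the most abundant member in every limb bud and ES–LB group, also per length. Early FLB libraries had 80.3, 79.5 and 74.7 CPM, early HLB libraries 98.3, 116 and 130 CPM, E10.5 FLB libraries 58.2, 57.3 and 63.3 CPM and E10.5 HLB libraries 64.2 and 71.1 CPM. ES–FLB libraries had 72.5, 70.3 and 66.5 CPM and ES–HLB libraries 159, 158 and 146 CPM. The ES–FLB values lay among those of the limb buds, and the ES–HLB values lay above every limb bud library. Outside the limb it was lower, with 40.2, 24.4 and 33.0 CPM in BA, 21.5, 19.6 and 27.05 CPM in Ca and 34.4, 30.5 and 30.7 CPM in TB. In the order of means (ES–HLB, early HLBs, early FLBs, ES–FLB, E10.5 HLBs, E10.5 FLBs, BA, TB, Ca), the 4 groups from the early FLBs to the E10.5 FLBs did not differ between neighbours, and BA and TB did not differ either (adjusted p = 0.995 by limma).

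Irx5, which acts with Irx3 in limb and heart, was highest in the ES–LBs and had its highest embryonic levels in the heart, where Irx3 was lowest, and in the early HLBs. ES–HLB libraries had 81.9, 79.5 and 75.8 CPM and ES–FLB libraries 47.8, 47.7 and 49.96 CPM, above the libraries of every embryonic group. Heart libraries had 34.2, 29.3 and 29.4 CPM, which overlapped those of the early HLBs (adjusted p = 0.741 for the difference by limma). Limb bud libraries had 24.5, 22.3 and 22.5 CPM (early FLBs), 25.3, 31.8 and 32.9 CPM (early HLBs), 26.01, 20.9 and 22.5 CPM (E10.5 FLBs) and 19.4 and 21.9 CPM (E10.5 HLBs). BA libraries had 20.7, 17.3 and 14.4 CPM and TB libraries 14.0, 9.58 and 9.08 CPM, and all TB libraries lay below those of the other groups.

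Irx6, the last gene of IrxB, had the lowest level per length of the 6 in each embryonic group, while in the ES–LBs Irx4 was lower. Irx6 lay above the floor of 3 reads in 16 of 26 libraries. Heart libraries had 4.96, 5.78 and 7.24 CPM, followed by ES–FLB with 1.46, 0.779 and 1.83 CPM and ES–HLB with 1.405, 1.28 and 1.08 CPM. Early FLB libraries (0.0511, 0.0499 and 0.103 CPM) and TB libraries (0.125, 0 and 0.230 CPM) were at or under the floor throughout. Early HLB libraries had 0.493, 0.520 and 0.763 CPM, E10.5 FLB libraries 0.855, 0.497 and 0.697 CPM, E10.5 HLB libraries 0.543 and 0.882 CPM and BA libraries 1.02, 0.350 and 0.118 CPM. Over the 6 genes, 20 of the 48 neighbouring pairs of groups in the orders of means differed by the test. Libraries did not overlap in 25 of the 48 pairs, and 19 of these 25 differed by the test. No share over all genes was computed for such pairs, so these counts are a description of the orders alone.

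**Figure D1:**
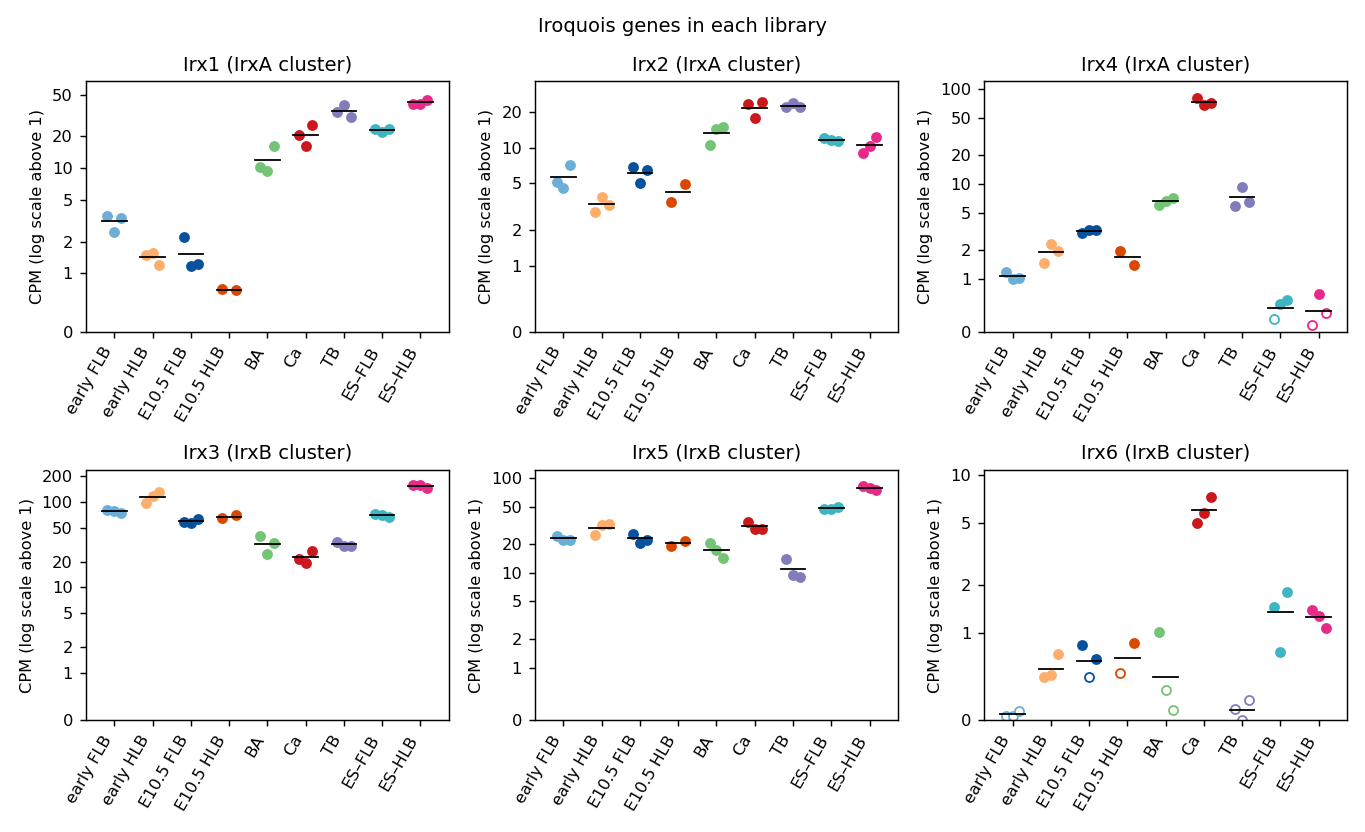
Scaled CPM of each Iroquois gene (y axis, linear from 0 to 1 and logarithmic above) in each library, by group (x axis). Each point is 1 library, open where it is at or under 3 reads, and the line is the group mean. Irx4 and Irx6 peak in the heart, Irx3 and Irx5 in ES–HLB, and Irx1 is between 0.705 and 3.53 CPM in limb buds and between 22.2 and 44.8 CPM in the ES–LBs.

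Per kilobase of transcript, a scale on which levels of different genes can be set side by side, the sum of the 6 genes was 111 ± 2.33 CPM per kb (SD, n = 3) in ES–HLB, the highest of the 9 groups, and 59.9 ± 0.854 CPM per kb (SD, n = 3) in ES–FLB. Ca, with 68.1 ± 6.22 CPM per kb (SD, n = 3), lay between the 2 ES–LB types. Limb bud groups had means of 35.5 to 56.8 CPM per kb, and TB, with 42.2 ± 3.06 CPM per kb (SD, n = 3), lay among them. BA had the lowest, 31.7 ± 3.26 CPM per kb (SD, n = 3). The make-up differed between tissues. IrxA genes made up 66.7% ± 0.975 of the sum in Ca and 61.8% ± 4.24 in TB (SD, n = 3 each) but 4.60% to 11.8% in the 4 limb bud groups, by group means. BA had 40.0% ± 7.71, ES–FLB 24.0% ± 0.344 and ES–HLB 19.8% ± 1.89 from IrxA (SD, n = 3 each). The highest limb bud library had 12.9% and the lowest ES–LB library 18.4%, so these groups did not overlap.

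Within IrxB, Irx3 exceeded Irx5 per kb 2.32 to 3.42 times in the limb bud groups, 1.74 times in ES–HLB and 1.28 times in ES–FLB (group means of the ratio). The ratio was 2.68 in TB, within the range of the limb buds, and 1.68 in BA. The heart had the reverse, with a ratio of 0.659 ± 0.141 (SD, n = 3) and 0.821 in its highest library. Within IrxA, Irx1 was 0.195 to 0.626 times Irx2 per kb in the limb bud groups but 2.19 times in ES–FLB and 4.46 times in ES–HLB. The ratio was 1.72 in TB, 1.05 in Ca and 0.999 in BA, so that Irx1 also exceeded Irx2 per length in TB and was near it in the heart and BA.

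**Figure D2:**
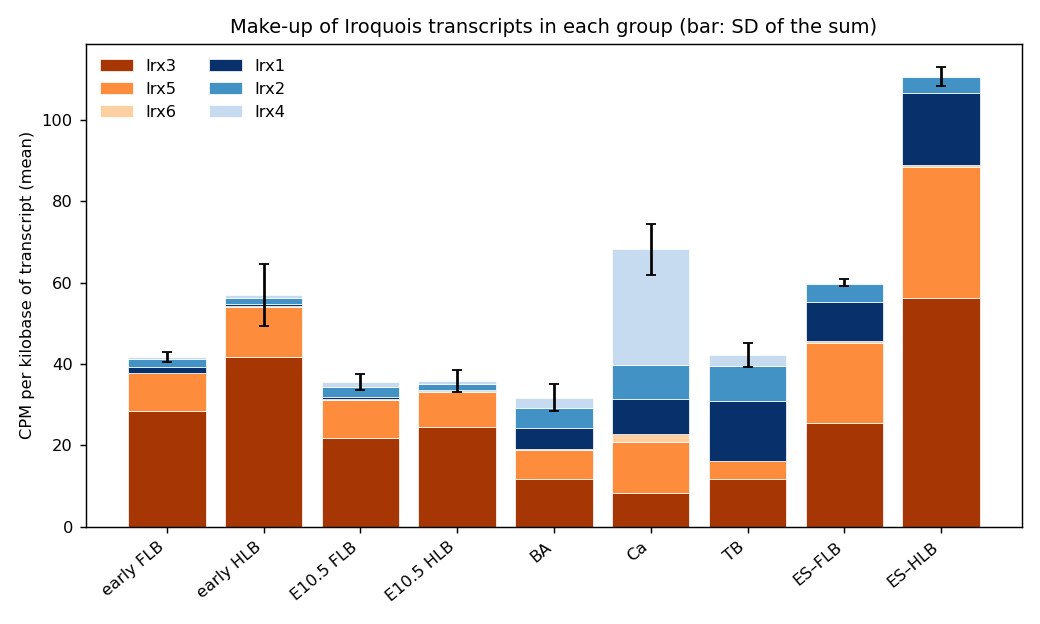
Mean CPM per kilobase of transcript of the 6 Iroquois genes (y axis), stacked by gene for each group (x axis). IrxB genes are in orange tones and IrxA genes in blue tones, and the bar at the top is the SD of the sum over libraries. ES–HLB has the tallest stack (111 CPM per kb), and Irx4 takes a broad part of the stack in the heart.

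Between hindlimb and forelimb types, Irx3 and Irx5 were higher in the hindlimb type in the early limb buds and in the ES–LBs, and Irx1 went opposite ways in embryo and culture. The question was whether the limb type made with or without retinoic acid carries the differences between HLBs and FLBs. In the early limb buds all 6 genes differed, against 18.9% of all genes tested (8.55% higher in HLBs and 10.4% lower). Irx3 was higher in the early HLBs by 0.54 ± 0.14 (log2 difference ± SE, n = 3 per group, adjusted p = 0.00633 by limma) and Irx5 by 0.36 ± 0.13 (adjusted p = 0.0475). Irx4 was higher by 0.62 ± 0.22 (adjusted p = 0.0420) and Irx6 by 0.94 ± 0.27 (adjusted p = 0.0122). Irx6 rested on 34 reads in the early HLBs and 4 in the early FLBs, a ratio of 8.66 with a 95% counting interval of 3.09 to 33.6. Irx1 and Irx2 were lower in the early HLBs, by −0.91 ± 0.19 (adjusted p = 0.000505) and −0.66 ± 0.17 (adjusted p = 0.0039). The calls of Irx4 and Irx5 were lost with a pseudocount of 0.1 (adjusted p = 0.0870 and 0.0517 by limma) and with no filter on low values (0.0541 and 0.0761), and that of Irx5 also in limma without trend and robust estimation (0.0851). They were lost as well without any 1 of the early FLB libraries and without early HLB replicate 2 or 3, and that of Irx5 also without single libraries of other groups (adjusted p up to 0.0570). Without early FLB replicate 3 the call of Irx2 was lost too, and without early HLB replicate 3 that of Irx6, which left 3 of 6. Markers of neighbouring tissue were lower in the early HLBs too, with 3 of 6 somite markers (sums of 49.7 to 61.3 CPM in the early FLBs against 31.7 to 42.5 CPM) and 3 of 6 cardiomyocyte markers (21.5 to 47.2 CPM against 6.86 to 10.51 CPM), and their part in the Iroquois values was not tested.

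At E10.5, 2 of the 6 genes differed between HLBs and FLBs, against 20.9% of all genes (9.91% higher and 11.0% lower), and both were lower in HLBs. Irx1 was lower in the HLBs by −0.71 ± 0.21 (log2 difference ± SE, n = 2 and 3, adjusted p = 0.0147 by limma) and Irx4 by −0.78 ± 0.24 (adjusted p = 0.0208). Irx2 had −0.50 ± 0.19 in the same direction and missed the threshold (adjusted p = 0.0537), and with E10.5 HLB replicate 2 kept for the chromosomes it covers it had −0.62 (adjusted p = 0.00735). Irx3, Irx5 and Irx6 had 0.18, −0.16 and 0.03, with 95% intervals of −0.13 to 0.50, −0.45 to 0.14 and −0.58 to 0.65. The call of Irx1 was lost without E10.5 FLB replicate 1 (the highest FLB library, log2 difference −0.48) and without either E10.5 HLB library, and that of Irx4 without E10.5 FLB replicate 3 or E10.5 HLB replicate 3 (−0.76 and −0.58) or with a pseudocount of 0.1 (adjusted p = 0.0657 by limma). Somite markers summed to 83.7 to 104 CPM in these FLBs and 42.9 to 44.4 CPM in these HLBs, with 1 of 6 called lower, and their part was not tested.

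In the ES–LBs, 3 of the 6 genes differed, against 19.9% of all genes (11.2% higher and 8.69% lower), and all 3 were higher in ES–HLB. Irx3 rose from 69.8 ± 3.01 CPM in ES–FLB to 154 ± 7.35 CPM in ES–HLB (SD, n = 3 each), a log2 difference of 1.14 ± 0.14 (SE, adjusted p = 2.5e-06 by limma). Irx1 rose from 23.1 ± 0.785 to 42.0 ± 2.39 CPM (0.85 ± 0.19, adjusted p = 0.00103) and Irx5 from 48.5 ± 1.29 to 79.0 ± 3.05 CPM (0.70 ± 0.13, adjusted p = 0.000185). No library of ES–FLB overlapped one of ES–HLB for these genes. For Irx2, Irx4 and Irx6 the log2 differences were −0.15, −0.12 and −0.04, with intervals of −0.49 to 0.19, −0.56 to 0.32 and −0.59 to 0.51. Leaving out any 1 library kept the count of 3. Markers of other cells were also higher in ES–HLB, with 5 of 9 genes of surface ectoderm and epithelium (sums of 120 to 177 CPM in ES–FLB and 235 to 253 CPM in ES–HLB), 5 of 5 of endothelium and 5 of 6 of erythroid cells, and none of these lists had a gene called lower. Their part in the values of Irx1, Irx3 and Irx5 was not tested.

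The difference between the ES–LB pair and the early limb bud pair was tested itself, and 2 of 6 genes passed, both with a positive difference, against 20.1% of all genes (11.5% positive and 8.59% negative). The hindlimb-type excess of Irx1 was greater in culture by 1.76 ± 0.26 (log2, SE, adjusted p = 7.8e-06 by limma), as it rose in ES–HLB against ES–FLB and fell in the early HLBs against FLBs. That of Irx3, in the same direction in both pairs, was greater in culture by 0.60 ± 0.19 (adjusted p = 0.0315). The Irx3 call was lost without early FLB replicate 1 or 2, early HLB replicate 1, ES–FLB replicate 2 or 3, or ES–HLB replicate 1 or 2, with values of 0.49 to 0.60 and adjusted p of 0.0537 to 0.0896. Irx5 had 0.34 (interval −0.04 to 0.71), Irx2 0.51 (0.03 to 0.99, adjusted p = 0.132), Irx4 −0.74 and Irx6 −0.98 (adjusted p = 0.0898 and 0.0688). The early pair also differs in age by the figure legend of the study, which enters this test and cannot be told apart from limb type.

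**Figure D3:**
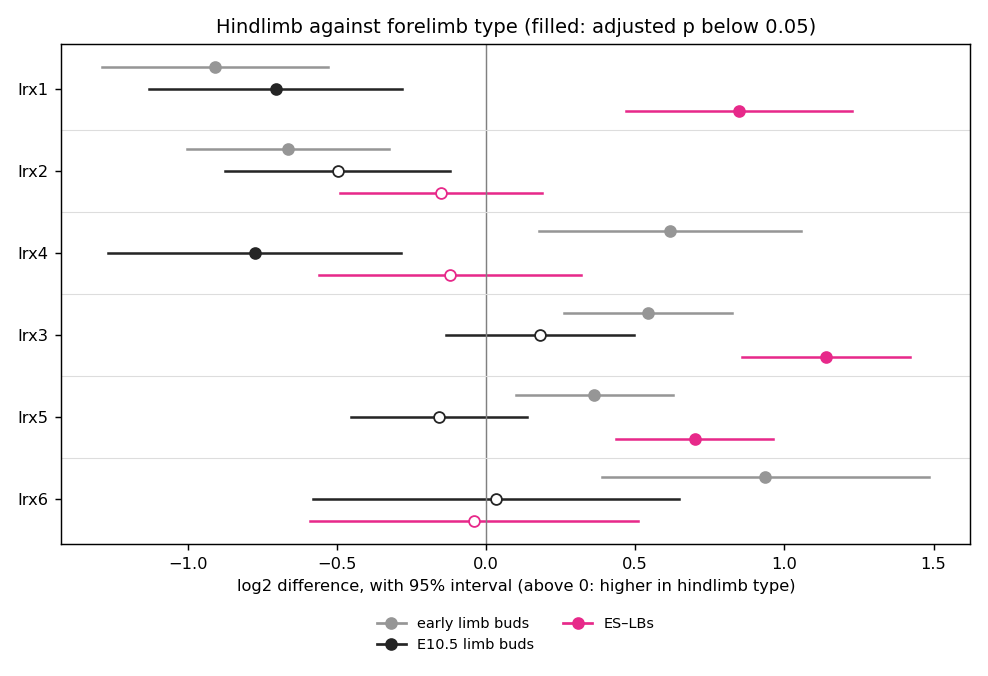
Log2 difference of hindlimb against forelimb type (x axis, with 95% interval) for each Iroquois gene (y axis) in early limb buds, E10.5 limb buds and ES–LBs. Filled points have an adjusted p below 0.05. Irx1 lies left of 0 in both pairs of limb buds (−0.91 and −0.71) and right of 0 in the ES–LBs (0.85).

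Between the early stage and E10.5, Irx1 and Irx3 fell in both limb types and Irx4 changed in the forelimb. In FLBs 4 of 6 genes differed, against 59.1% of all genes (28.3% higher and 30.8% lower at E10.5). Irx1 fell by 0.85 ± 0.19 on the log2 scale (SE, n = 3 per group, adjusted p = 0.000207 by limma) and Irx3 fell by 0.39 ± 0.14 (adjusted p = 0.0175). Irx4 rose by 1.25 ± 0.22, from 1.07 ± 0.0937 to 3.23 ± 0.135 CPM (SD, adjusted p = 8.4e-06). Irx6, under the floor in the early FLBs, had 1.05 ± 0.27 (adjusted p = 0.00122) on 3 to 5 reads per library at E10.5. With CPM as deposited, which moves the median of all genes by 0.15, the Irx3 value was −0.22 and missed the threshold (adjusted p = 0.168), and without early FLB replicate 1 or E10.5 FLB replicate 2 its adjusted p was 0.0501 and 0.0533. In HLBs 3 of 6 genes differed, against 28.9% of all genes (12.6% higher and 16.4% lower), and all 3 fell. Irx3 fell by 0.75 ± 0.15 (adjusted p = 0.000724), Irx5 fell by 0.52 ± 0.14 (adjusted p = 0.00654) and Irx1 fell by 0.65 ± 0.21 (adjusted p = 0.0171). Without E10.5 HLB replicate 1 the count in HLBs was 1, with Irx3 called, and the Irx1 call was also lost without E10.5 HLB replicate 3 or early HLB replicate 2. The change with stage differed between limb types for Irx4, by −1.39 ± 0.32 (log2, hindlimb minus forelimb, adjusted p = 0.00225), 1 of 6 genes against 20.6% of all (10.7% positive and 9.96% negative). For Irx5 this difference was −0.52 ± 0.19 (adjusted p = 0.0548). By the figure legend of the study, the early FLBs were younger than the early HLBs, so the forelimb interval to E10.5 was longer. Limb type and length of interval cannot be told apart in these 2 differences.

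Compared with limb buds of the same type, both ES–LB types had far more Irx1, more Irx2 and Irx5, and less Irx4. This comparison asks how near the cultured mesenchyme is to the limb bud. ES–FLB differed from the early FLBs in 5 of 6 genes, 4 higher and 1 lower, against 76.9% of all genes (38.9% higher and 38.0% lower). Against the E10.5 FLBs it differed in 5, again 4 higher and 1 lower, with 68.8% of all genes differing (33.9% higher and 34.9% lower). ES–HLB differed from the early HLBs in 6 of 6 genes, 5 higher and 1 lower, against 75.3% of all genes (38.5% higher and 36.8% lower). Against the E10.5 HLBs it differed in 5, 4 higher and 1 lower, with 68.7% of all genes differing (35.3% higher and 33.4% lower). Most genes differed in these comparisons, so a count of 5 or 6 is close to the background.

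Irx1 was higher by 2.72 ± 0.19 in ES–FLB than in the early FLBs (log2, SE, n = 3 per group, adjusted p = 1.2e-14 by limma) and by 3.57 ± 0.19 than in the E10.5 FLBs (adjusted p = 4.7e-17). In ES–HLB it was higher by 4.48 ± 0.19 than in the early HLBs (adjusted p = 6.5e-20) and by 5.13 ± 0.21 than in the E10.5 HLBs (adjusted p = 1.8e-19). Neural tube markers (9 genes, Sox2 and Tubb3 among them), which mark a tissue that also uses Irx1, summed to 32.1 to 44.3 CPM in the ES–LBs, 7.25 to 17.1 CPM in the limb buds and 171 to 202 CPM in TB. Only 5 of the 9 had a mean of 1 CPM or more in ES–FLB and 4 in ES–HLB, against 1 in each limb bud group and 9 in TB. Endoderm markers (4 genes) summed to 16.9 to 35.0 CPM in the ES–LBs and 3.31 to 7.05 CPM in the limb buds. The part of either in the Irx1 level was not tested.

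Irx5 was higher in ES–FLB by 1.05 ± 0.13 and 1.06 ± 0.13 (against early and E10.5 FLBs, adjusted p = 2.5e-08 and 3.9e-08 by limma). In ES–HLB it was higher by 1.39 ± 0.13 and 1.92 ± 0.14 (against early and E10.5 HLBs, adjusted p = 1.2e-10 and 3.2e-12). Irx2 was higher by 0.90 to 1.53 in the 4 comparisons, with adjusted p of 1.8e-05 or less. Irx3 did not pass the test between ES–FLB and either FLB stage (−0.16, interval −0.44 to 0.12, and 0.23, interval −0.06 to 0.51). With CPM as deposited, which moves the median of all genes by 0.20, the value of Irx3 against the early FLBs was 0.06, and with the libraries of the compared groups fitted alone Irx3 passed in both comparisons (adjusted p = 0.0147 and 0.00308). In ES–HLB, Irx3 was higher by 0.43 ± 0.14 than in the early HLBs (adjusted p = 0.00681) and by 1.18 ± 0.15 than in the E10.5 HLBs (adjusted p = 6.5e-07).

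Irx4 was lower in the ES–LBs, by −0.73 and −1.98 in ES–FLB (against early and E10.5 FLBs, adjusted p = 0.00289 and 1.3e-09 by limma) and by −1.47 and −1.33 in ES–HLB (against early and E10.5 HLBs, adjusted p = 3.1e-07 and 1.3e-05). In reads this was 11 over the ES–FLB libraries against 63 over the deeper early FLB libraries, a ratio of levels of 0.427 (95% counting interval 0.203 to 0.816), and 9 over ES–HLB against 111 over the early HLBs (0.202, 0.0900 to 0.398). Irx6 was higher in ES–FLB than in the early FLBs, on 33 reads against 4 (ratio 20.2, counting interval 7.17 to 78.3). Its values against the E10.5 FLBs (0.62, adjusted p = 0.0427), the early HLBs (0.69, adjusted p = 0.0220) and the E10.5 HLBs (0.54, adjusted p = 0.109) rested on 3 to 15 reads per library. The E10.5 FLB call was lost without E10.5 FLB replicate 2 or 3 or ES–FLB replicate 1 or 3, and the early HLB call without early HLB replicate 1 or 2 or ES–HLB replicate 1. With a pseudocount of 0.1 both calls were lost (adjusted p = 0.116 and 0.0633 by limma), and with no filter on low values the E10.5 FLB call was lost (0.0515).

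**Figure D4:**
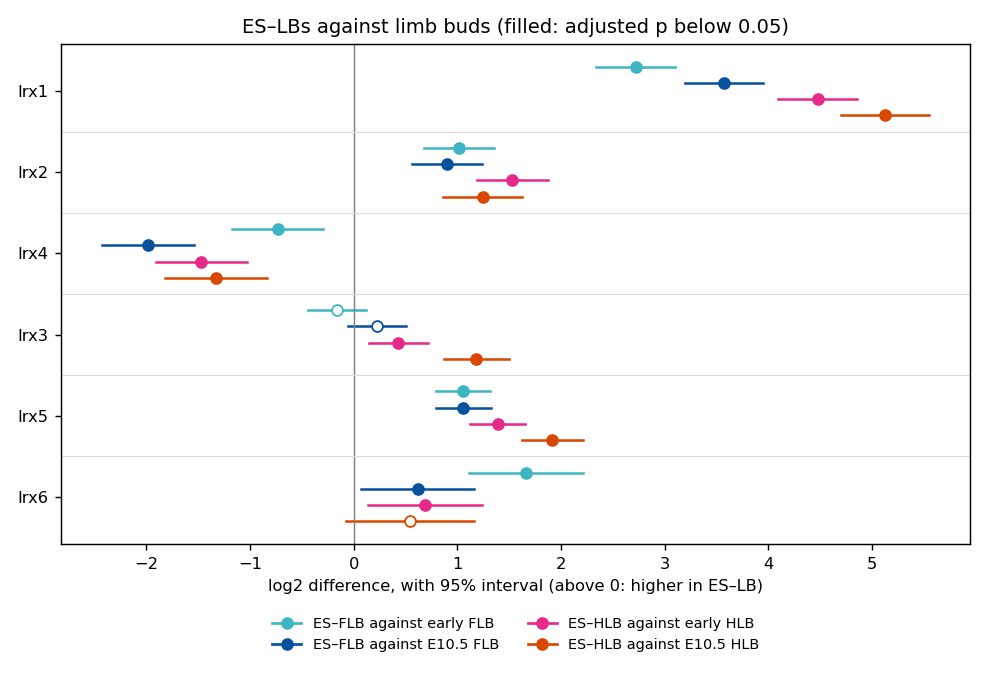
Log2 difference of each ES–LB type from limb buds of the same type (x axis, with 95% interval) for each Iroquois gene (y axis), against the early and the E10.5 stage. Filled points have an adjusted p below 0.05. Irx1 lies farthest to the right (2.72 to 5.13), Irx4 lies left of 0 (−0.73 to −1.98) and Irx3 lies near 0 in ES–FLB.

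Among the E10.5 tissues, each tissue was compared with the mean of the other 4 groups of that stage, and the limb buds with BA, Ca and TB. Ca differed in 6 of 6 genes, 5 higher and 1 lower, against 79.0% of all genes (38.0% higher and 41.0% lower). Irx4 was higher in Ca by 4.02 ± 0.17 (log2, SE, adjusted p = 4.4e-20 by limma), Irx6 by 2.76 ± 0.22 (adjusted p = 2.4e-13), Irx1 by 1.89 ± 0.15, Irx2 by 1.16 ± 0.13 and Irx5 by 0.82 ± 0.10 (adjusted p of 1.9e-09 or less for Irx1 and Irx2, and 3.3e-08 for Irx5). Irx3 was lower there by −0.98 ± 0.11 (adjusted p = 4.4e-08). By group mean, Irx1 in Ca (20.8 CPM) lay below TB (35.0 CPM), and the Irx2 libraries of Ca overlapped those of TB. Irx6 had 132 reads in the heart libraries and 3 in those of TB, a ratio of 50.3 (95% counting interval 16.8 to 247). Heart libraries also held 24286 to 35319 CPM of the erythroid markers, against 2702 to 6794 CPM in the other E10.5 tissues, and the part of blood in these values was not tested.

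TB differed in 5 of 6 genes, against 51.4% of all genes, and its 3 libraries also held the highest neural tube (above) and somite markers, the latter (6 genes) at 669 to 677 CPM against at most 104 CPM in the other groups. Irx1 was higher in TB by 2.83 ± 0.15 and Irx2 by 1.24 ± 0.13 (log2, SE, adjusted p = 8.8e-17 and 2.3e-09 by limma), while Irx5 (−1.03 ± 0.10), Irx3 (−0.37 ± 0.11) and Irx6 (−1.48 ± 0.22) were lower. By group mean, Irx3 in TB (31.9 CPM) was still above Ca (22.7 CPM), and the Irx2 libraries of TB overlapped those of Ca. BA differed in 3 of 6 genes, against 51.4% of all genes. Irx1 was higher in BA by 0.90 ± 0.15 (adjusted p = 7.75e-06), and Irx3 (−0.37 ± 0.11, adjusted p = 0.00756) and Irx6 (−0.73 ± 0.22, adjusted p = 0.00554) were lower. These differences held for the mean of the other groups and not for each. By group mean, Irx1 in BA (11.9 CPM) lay below Ca (20.8 CPM) and TB (35.0 CPM) and above only the limb buds. Irx3 in BA (32.5 CPM) lay above Ca (22.7 CPM), and Irx6 in BA (0.495 CPM) above TB (0.118 CPM). The BA counts rested on single libraries, since the count was 5 without BA replicate 1, where Irx2 and Irx5 were added, and Irx3 lost its call without BA replicate 2 (−0.18) and Irx6 without BA replicate 3 (−0.43). Neural tube markers varied within BA, from 42.1 to 137 CPM.

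The E10.5 limb buds differed from BA, Ca and TB in 5 of 6 genes, against 64.3% of all genes (31.1% higher and 33.2% lower). Irx3 (1.15 ± 0.09, log2, SE, adjusted p = 1.1e-09 by limma) and Irx5 (0.27 ± 0.09, adjusted p = 0.00873) were higher in limb buds. All 3 genes of IrxA were lower, with −3.74 ± 0.13 for Irx1, −2.47 ± 0.15 for Irx4 and −1.79 ± 0.12 for Irx2 (adjusted p of 9.2e-15 or less). Irx5 in the heart exceeded all limb bud libraries of this stage, so that its higher level in limb buds held for the mean of the 3 tissues and not for each, and without E10.5 HLB replicate 3 its call was lost (0.23, adjusted p = 0.0643).

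**Figure D5:**
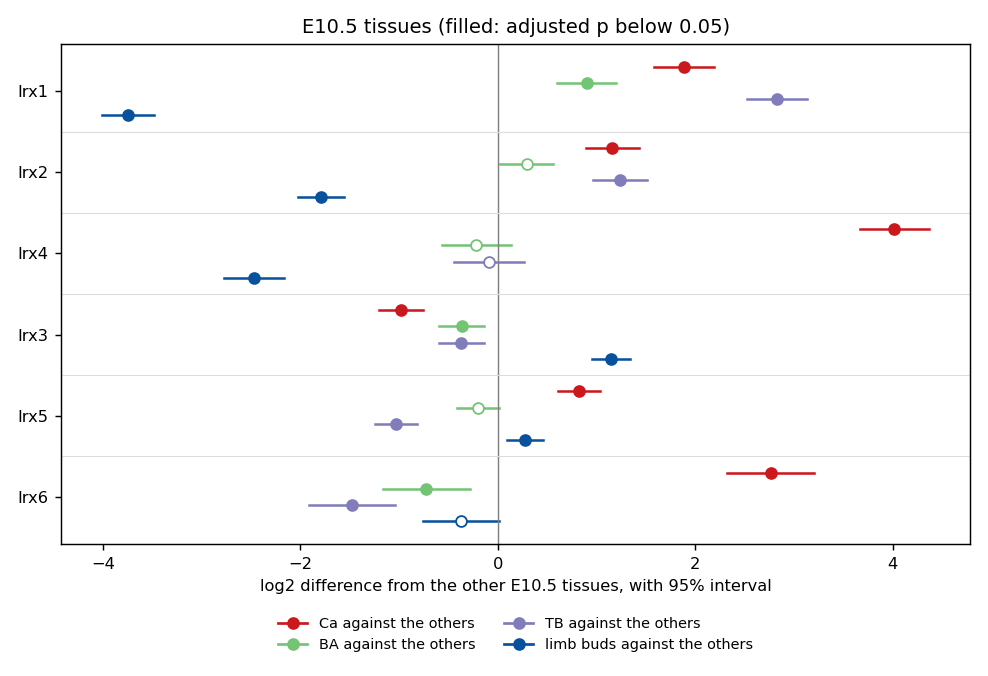
Log2 difference of each E10.5 tissue from the other E10.5 tissues (x axis, with 95% interval) for each Iroquois gene (y axis), with the E10.5 limb buds as 1 group. Filled points have an adjusted p below 0.05. The limb buds lie left of 0 for Irx1, Irx2 and Irx4 and right of 0 for Irx3, and Ca lies farthest right for Irx4 (4.02) and Irx6 (2.76).

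Genes next to the Iroquois genes were read for the same comparisons. RefSeq places 15 genes within IrxA and 11 within IrxB, the Irx genes themselves included, of which 5 and 4 were listed. Crnde, a long noncoding RNA read away from the start of Irx5 and listed as 4933436C20Rik, rose from 2.76 ± 1.28 CPM in ES–FLB to 6.23 ± 1.27 CPM in ES–HLB (SD, n = 3 each) (log2 difference 1.11 ± 0.24, SE, adjusted p = 0.00108 by limma). In the early limb buds 4933436C20Rik had 0.12 ± 0.24 (adjusted p = 0.820). Fto, the gene beyond Irx3, whose introns hold enhancers that act on Irx3, lay between group means of 120.5 and 187 CPM and did not pass the test between ES–LB types (−0.01 ± 0.05, adjusted p = 0.924) or between early limb types (−0.10 ± 0.05, adjusted p = 0.219). Fto was higher in ES–FLB than in the early FLBs by 0.47 ± 0.05. Mmp2, a matrix metalloproteinase beyond Irx6, was highest in the ES–LBs (433 and 391 CPM) and did not pass the test between them (−0.15 ± 0.07, adjusted p = 0.156).

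On the IrxA side, Gm20554, a noncoding RNA that overlaps the upstream end of the RefSeq gene of Irx2 and ends before the start site used for the promoter, had at most 3.08 CPM by group mean, in the heart, where Irx2 was also among the highest. Ndufs6, a subunit of respiratory complex I beyond Irx4, had 98.7 ± 13.8 CPM in Ca and 37.4 to 61.9 CPM in the other groups. D730050B12Rik, between Irx2 and Irx4, was at 0 in all libraries, and 8030423J24Rik, on the other side of Irx1, was above 0 in heart libraries alone, at 0.223 CPM. Irx3 shares 1653 bases with the antisense gene Irx3os and Irx6 shares 785 bases with Gm45505 on the opposite strand in GENCODE. The strand setting of the counting is not given in the sources used here, so reads of these pairs cannot be told apart.

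Lists of related genes were read beside the Iroquois genes. Of 6 anterior limb bud genes, 1 was higher and 0 lower in the early HLBs against FLBs (median 0.38). In ES–HLB against ES–FLB, 3 were higher and 0 lower (median 0.24). Against the early limb buds, 2 were higher and 3 lower in ES–FLB, and 2 higher and 2 lower in ES–HLB. Of all genes, 76.9% and 75.3% differed there. Asb4, 1 of the 6, had log2 differences of −0.22 ± 0.17 in the early HLBs against FLBs and −0.18 ± 0.17 in ES–HLB against ES–FLB (SE, adjusted p = 0.433 and 0.531 by limma). In the ES–LBs, Asb4 had means of 29.7 and 26.2 CPM against 341 to 685 CPM in limb buds. Of 11 posterior genes and targets of Hedgehog, 6 were higher and 2 lower in the early HLBs, and 5 were higher and 4 lower in ES–HLB (medians 0.59 and 0.48, against −0.00 and 0.01 over all genes). Of all genes, 18.9% and 19.9% differed in these comparisons. Hoxd12, a posterior homeobox gene, had 4.71 ± 0.17 and 2.13 ± 0.17. Gli1 and Ptch1, the transcriptional readouts of Hedgehog, were higher in the early HLBs (2.46 ± 0.25 and 0.59 ± 0.10) and lower in ES–HLB (−1.12 ± 0.25 and −1.09 ± 0.10). Of 6 proximal limb bud genes, 1 was higher and 2 lower in the early HLBs, and 1 was higher and 3 lower in ES–HLB (medians −0.13 and −0.27).

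The other TALE homeobox genes on the list were 12, and all were tested. In ES–FLB against the early FLBs 8 were higher and 4 lower (median 0.42, against 0.02 over all genes), and in ES–HLB against the early HLBs 6 were higher and 4 lower (median 0.17, against 0.03), where 76.9% and 75.3% of all genes differed. Pbx4 was higher by 1.28 ± 0.21 and 1.20 ± 0.21 (adjusted p = 2.0e-06 and 5.9e-06 by limma), and Meis1, a marker of the proximal limb bud, by 1.15 ± 0.09 and 0.55 ± 0.09 (adjusted p = 4.8e-11 and 1.1e-05). In the heart, 8 of the 12 were lower and 2 higher than in the other E10.5 tissues, a comparison in which 79.0% of all genes differed. Of 5 ventricular genes all 5 were higher in the heart (median 11.15), Hey2, a ventricular repressor, by 3.98 ± 0.19. Of 5 atrial genes tested, 2 were higher, 2 lower and 1 did not pass, and Nr2f2, an atrial nuclear receptor that other mesenchyme also uses, was lower by −0.80 ± 0.07.

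Over the 9 group means on the log2 scale, Irx1 and Irx2 ran together (Pearson r = 0.874, Spearman rho = 0.75), and Irx3 and Irx5 less so (r = 0.626, rho = 0.550). Irx3 and Irx4 ran opposite (r = −0.859, rho = −0.883). These values describe 9 points that share libraries, scaling and depth, and carry no test. Among 10159 genes with at least 16 CPM in their highest group, the 3 most like Irx1 over the 9 means were Dst (r = 0.955), Zeb2 (0.952) and Egln3 (0.945). For Irx2 they were Pla2g7 (0.980), Tubb4a (0.963) and Olfml3 (0.948). Rasal2 (0.978), Cltb (0.977) and Tomm40l (0.974) were most like Irx4, and all of these peaked in the heart. For Irx3 they were Sik3 (0.947), Spns1 (0.931) and Bax (0.927), and for Irx5 Ccdc3 (0.974), Mpdu1 (0.952) and Hgsnat (0.949). Ccdc3 spanned 1.19 CPM in TB to 63.3 CPM in ES–HLB, whereas Sik3 spanned 56.0 to 76.5 CPM, so likeness in r is not likeness in size of change. For Irx6, compared with 10160 genes, they were Acacb (0.978), Lama4 (0.972) and Acat1 (0.972), which also peaked in the heart.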

How the data were processed

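RNA of 27 libraries was sequenced by the authors as stranded mRNA with single-end reads. HISAT2 (2.0.4) placed the reads on mm10, Cuffdiff counted them per gene and edgeR (3.16.2) was used for tests, as the paper and the submitters' processing notes give it. The deposited table holds CPM for every gene and library, and each column adds up to 1000000. The values were used as CPM and not as counts. Depth was estimated from the spacing of low values. Of the values above 0, 93.1% to 93.5% lay within 0.05 of a whole number of reads in the 6 early limb bud libraries. In the other 20 libraries used this share was 98.9% to 99.2%. The reason for the lower share was not tested.

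Libraries were scaled by an unweighted trimmed mean of log ratios (30% of ratios and 5% of intensities trimmed). A gene was fitted if 3 or more of the 26 libraries had at least 1 CPM, on log2(CPM + 0.5) in 1 model of 9 groups with limma 3.58.1 (trend and robust) in R 4.3.3. Benjamini-Hochberg adjustment ran over 14438 genes, with calls at an adjusted p below 0.05. On data simulated for ES–HLB against ES–FLB over 14455 genes, 39 of 67 genes changed 1.5-fold, 63 of 67 changed 2-fold and 65 of 66 changed 4-fold were recovered. The simulation gave all genes and groups the same spread beyond counting noise, and changed only genes above a set mean level. Irx6 lies below that level, so these shares do not cover genes as low as Irx6. Replicates of a group differed by more than sampling noise. The members, lists and tests were chosen with earlier results of these data known. Genes named are the 6 members, genes of the lists, the neighbours in the clusters and the 3 most like each member. Positions and overlaps are from GENCODE and RefSeq on GRCm38, and transcript lengths from the GENCODE transcript matched to each RefSeq entry. Tables and plots used matplotlib 3.10.9, scipy 1.17.1, pandas 2.3.3 and numpy 2.4.6 under Python 3.11.15. Alternatives were 2 other scalings, 2 pseudocounts (0.1 and 1), 2 filters, fewer libraries, a replicate block, limma without trend and robust, a threshold of 0.001, and each library left out. Some list results are not reported here.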

Additional observations from a re-analysis of the deposited data

Results flagged for a closer look

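Irx1 and Irx3 are listed because the difference between hindlimb and forelimb types was not the same in culture and in the early limb buds by the test of the difference itself, with 1.76 for Irx1 and 0.60 for Irx3 on the log2 scale. Irx4 is listed because its change from the early stage to E10.5 was not the same in HLBs and FLBs, by −1.39. These values rest on the libraries named with them in the report. The early FLBs were younger than the early HLBs by the figure legend of the study, so limb type and age cannot be told apart in either test. No group had the 4 libraries that a check for single outlying libraries needs. In the library left out, replicate 2 of the E10.5 HLBs, genes of chromosome 13 have values while 623 of 625 genes of chromosome 8 above 2 CPM in the other replicates are at 0. As deposited, it gave 1.37 CPM for Irx1, 4.64 CPM for Irx2 and 3.28 CPM for Irx4, above its floor of 0.819 CPM. CPM in that library is relative to the genes it lists, and after scaling with the other libraries they were 0.903, 3.07 and 2.17 CPM, against 0.714 to 0.735, 3.49 to 5.00 and 1.43 to 2.02 CPM in the other 2 libraries.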

How the results depend on the processing

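Every alternative was run. Of the 90 differences of single genes, 61 passed the test and none of these changed direction under any of 37 settings. They kept their call in 2157 cases and lost it in 86, and the 29 others gained a call in 42 cases. Leaving out 1 library gave 1535 of the kept and 51 of the lost calls. The library left out was often of a group outside the comparison, where the difference hardly moves. The threshold of 0.001 leaves the difference as it is and cannot turn its direction. These totals therefore say little on how firm a single call is. Counts of genes called that moved by over 1.5 times, and a few that moved by less, are given here, and the cause was not tested. At an adjusted p below 0.001 the early HLBs against FLBs had 1 of 6, the E10.5 HLBs against FLBs 0, E10.5 against early FLBs 2, E10.5 against early HLBs 1, BA 1, the limb-type difference 1, the stage difference 0, and the neighbours in the orders of groups 11 of 48. With a pseudocount of 0.1 the E10.5 HLBs against FLBs had 1, the stage difference 2, the early HLBs against FLBs 4 and the limb-type difference 3. With no filter on low values the early HLBs against FLBs had 4. With only the compared groups fitted, the E10.5 HLBs against FLBs had 1 (fewer libraries in the fit), the limb-type difference 4 and the stage difference 3. With CPM as deposited the limb-type difference had 1 and the stage difference 2. Without each library in turn the counts ran from 3 to 6 for the early HLBs against FLBs, 1 to 3 for the E10.5 HLBs against FLBs, 1 to 3 for E10.5 against early HLBs, 2 to 5 for BA, 1 to 3 for the limb-type difference and 1 to 2 for the stage difference.

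Replicate numbers did not pair the libraries. Deviations of libraries with the same number correlated at −0.089 to 0.126, and 3 of 100 pairs exceeded 0.1. A replicate block gave the stage difference a count of 2 (Irx5 added) and ended no call of a member, while Irx2 gained a call in the E10.5 HLBs against FLBs and in BA.

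The direction turned for differences that had not passed. For Irx6 in the E10.5 HLBs against FLBs it was −0.0014 with CPM as deposited, −0.048 with the replicate block, and −0.17 to 0.24 without each library. For Irx5 in E10.5 against early FLBs it was 0.0027 with median-of-ratios scaling, 0.16 with CPM as deposited, and −0.089 to 0.066 without each library. For Irx3 in ES–FLB against the early FLBs it was 0.059 with CPM as deposited. Without each library, Irx4 and Irx6 in ES–HLB against ES–FLB ran from −0.36 to 0.11 and −0.29 to 0.14, Irx4 and Irx6 in E10.5 against early HLBs from −0.33 to 0.052 and −0.059 to 0.35, Irx4 in TB from −0.28 to 0.033, and the stage difference of Irx2 from −0.067 to 0.40. Depth limits Irx6 outside the heart, Irx4 in the ES–LBs and Irx1 in the E10.5 HLBs, which rest on few reads.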
